A study of Mus musculus with 4 samples.

Results

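Transcripts of the lectican, tenascin and hyaluronan matrix were measured in cultured mouse astrocytes carrying an shRNA against Phf8 or a control shRNA. The matrix genes were 10 genes chosen by symbol (Vcan, Ncan, Bcan, Acan, Hapln1, Hapln4, Tnc, Tnr, Cd44 and Has2) among the 55421 genes of the deposited count tables, and each of the 10 had a row. The Phf8 shRNA group and the control shRNA group held 2 libraries each. All 4 libraries came from astrocytes that had been differentiated in culture from C57BL/6J neural stem cells (NSCs) in medium with serum, and both groups had been infected with lentivirus, so that virus, hairpin RNA and serum were common to them. A short hairpin RNA (shRNA) is cut by the cell to a small RNA directed against the transcript it matches. The product of Phf8 is an enzyme that removes methyl groups from histones. The cells were an in vitro model and not astrocytes taken from brain, and the labels state neither the number of hairpin sequences nor whether replicates were separate cultures or infections. The p-values therefore measure only the spread between these libraries, which may be technical.

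The extracellular matrix of the brain is built on hyaluronan, a long unsulfated sugar chain that synthases at the cell surface extrude. Lecticans are chondroitin sulfate proteoglycans that bind hyaluronan through their N-terminal domain, link proteins of the Hapln family lock that bond, and tenascins crosslink lecticans through the lectican C-terminal domain. Such assemblies form the diffuse matrix around glia and the perineuronal nets around some neurons, and several of their proteins are known to be made by astrocytes and by cells of the oligodendrocyte lineage. The receptor CD44 anchors cells to hyaluronan.

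The libraries held 36839530 to 44724759 reads assigned to genes. Levels are given as CPM, the reads of a gene per 1000000 reads of its library, with library totals adjusted by TMM, edgeR's trimmed-mean scaling. Changes are log2 fold changes of Phf8 shRNA over control shRNA with their standard error (SE). Adjusted p-values come from the quasi-likelihood F test of edgeR over all 21042 genes tested, with Benjamini-Hochberg adjustment and a call under 0.05. The targeted gene Phf8 stood at 44.3 and 42.3 CPM in the Phf8 shRNA libraries, against 53.3 and 53.0 CPM in the control shRNA libraries. That was a log2 fold change of -0.30 ± 0.06 (SE, adjusted p = 1.72e-06), or a decrease of 18.5%. Of all genes tested, 52.8% had a larger absolute log2 fold change than Phf8. How the other differences relate to a decrease of this size was not tested. The astrocyte markers Gfap, Aqp4, Slc1a3 and Aldh1l1 were present in all libraries, at 1319 and 1024 CPM with Phf8 shRNA against 4079 and 3863 CPM with control shRNA for Gfap. Mitochondrial ribosomal RNA took 27.8% and 28.2% of the reads with Phf8 shRNA, against 21.2% and 22.5% with control shRNA. With mitochondrial genes and the 20 most abundant genes left out, the same 8 matrix genes passed.

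Most of the matrix genes were higher with Phf8 shRNA, while the hyaluronan receptor gene Cd44 and the synthase gene Has2 were lower. Ncan, Bcan, Acan, Hapln1, Tnc and Tnr rose, Cd44 and Has2 fell, and Vcan and Hapln4 did not pass the test. The 8 called genes compare with a background of 52.1% of all genes tested, and the 6 higher and 2 lower genes with backgrounds of 24.8% higher and 27.3% lower. Changes that passed and reached 2-fold or more numbered 5 of the 10, against 14.2% of all genes tested. All 10 genes passed the low-count filter, but Acan and Hapln1 passed it through the Phf8 shRNA libraries alone, and a filter passed in this way favours genes that differ. Of the other 8, 4 rose and 2 fell, and 3 (Bcan, Tnr and Cd44) reached 2-fold. The median log2 fold change was 0.72 over the 10 genes and 0.55 over those 8, against 0.01 over all genes tested. Library values of the groups did not overlap for 9 of the 10 genes, against 73.9% of all genes tested, so that a lack of overlap says little here. In bulk RNA, fewer cells of a type and less RNA per cell cannot be told apart.

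**Figure D1:**
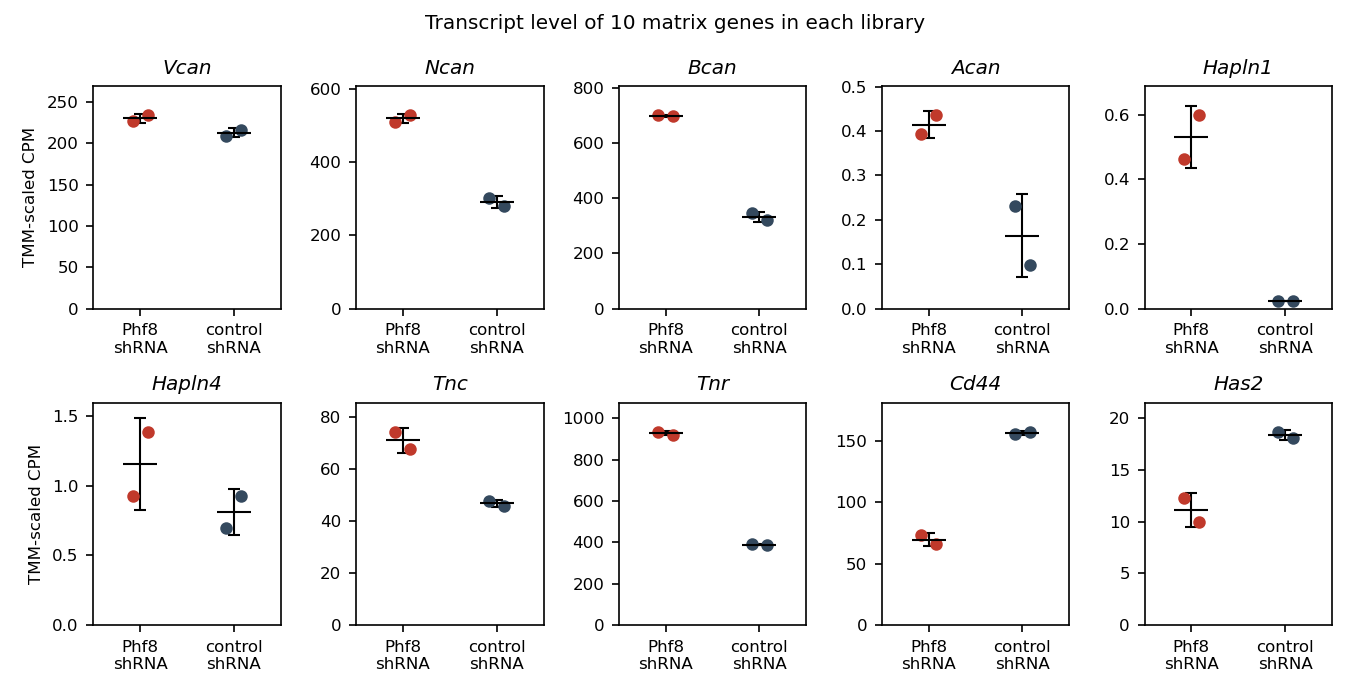
TMM-scaled CPM of each matrix gene (y axis, linear and from 0, a scale for each gene) in the 2 Phf8 shRNA libraries (left, red points) and the 2 control shRNA libraries (right, dark points), with the mean and SD as black bars. Ncan, Bcan, Tnc and Tnr are higher in both Phf8 shRNA libraries, Cd44 and Has2 are lower, and the points of Hapln4 meet at 0.93 CPM.

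Upstream sequence is shown for Bcan, Ncan and Tnr, the most abundant genes that rose, and for Cd44, the most abundant one that fell. The 250 bases before each RefSeq start are given in GRCm38.p6 coordinates, 5′ to 3′ on the strand of the gene, in lower case, with matches to any of 8 short motifs in capitals.
Bcan, chr3:88000357-88000606, minus strand: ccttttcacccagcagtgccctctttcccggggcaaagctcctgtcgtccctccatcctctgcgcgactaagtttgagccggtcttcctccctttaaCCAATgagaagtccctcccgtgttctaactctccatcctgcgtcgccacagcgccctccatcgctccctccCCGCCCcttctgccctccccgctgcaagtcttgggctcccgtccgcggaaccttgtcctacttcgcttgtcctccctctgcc
Ncan, chr8:70120845-70121094, minus strand: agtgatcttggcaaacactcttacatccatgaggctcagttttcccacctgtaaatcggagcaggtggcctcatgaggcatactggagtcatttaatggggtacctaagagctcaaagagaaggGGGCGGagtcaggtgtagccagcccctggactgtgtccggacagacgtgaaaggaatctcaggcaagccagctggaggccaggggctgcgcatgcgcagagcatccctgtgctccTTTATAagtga
Tnr, chr1:159523519-159523768, plus strand: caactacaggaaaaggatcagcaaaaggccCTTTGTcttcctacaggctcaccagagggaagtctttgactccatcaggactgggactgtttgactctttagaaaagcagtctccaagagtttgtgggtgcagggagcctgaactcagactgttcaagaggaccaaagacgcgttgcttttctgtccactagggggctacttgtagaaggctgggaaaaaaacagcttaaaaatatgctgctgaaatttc
Cd44, chr2:102901666-102901915, minus strand: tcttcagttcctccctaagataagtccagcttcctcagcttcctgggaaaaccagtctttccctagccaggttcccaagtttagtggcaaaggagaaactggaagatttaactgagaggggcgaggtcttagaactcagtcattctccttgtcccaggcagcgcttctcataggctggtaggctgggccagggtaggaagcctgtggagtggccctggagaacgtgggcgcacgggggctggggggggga
The motifs, searched on both strands, were the GC box GGGCGG, the TATA box TATAAA, the CCAAT box CCAAT, the AP-1 site TGANTCA, the E-box CACGTG, the SOX site ACAAAG, the CRE TGACGTCA and the palindromic NFI site. A window was given for 8 of the 10 genes, all but Hapln4 and Has2. In those windows a GC box was found for 5 genes, the 4 lecticans and Tnc, and 32.7% of all 32851 windows of this length held it. Motif counts here are of genes, Tnc with 2 windows, whereas the shares are of windows. G and C made up 62.4% for Vcan, 62% for Bcan, 74.4% for Acan and 54.4% for Ncan, against a median of 52.4%. The Tnc windows, at 44.8% and 51.2%, lay below that median of all windows. The windows of Hapln1, Tnr and Cd44 held no GC box. RefSeq starts differ in part from the bounds of the counted genes. The Hapln1 window lay inside the gene span used for counting. The Ncan window, with its TATA box, and a Tnc window reached into the spans of their genes. A CCAAT box was found for Vcan, Bcan and Acan (33.8% of all windows), a TATA box for Ncan and Tnc (12.4% of all windows) and a SOX site for Tnr (16.5% of all windows). The other 4 motifs had no match in the 8 genes, and 6.75% of all windows held the AP-1 site, 6.02% the E-box, 1.55% the CRE and 0.0365% the NFI site. In the windows printed, CpG dinucleotides numbered 16 for Bcan, 6 for Ncan, 2 for Tnr and 5 for Cd44, against a median of 6 over all windows. Among the genes printed, Bcan and Tnr, which both rose more than 2-fold, shared no motif, and a match or its absence says nothing of binding.

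Among the lecticans, brevican and neurocan transcripts rose and versican transcripts differed little. Bcan (ENSMUSG00000004892, minus strand of chromosome 3 from 87987531 to 88000230 in mm10), which encodes brevican, a brain lectican with a short core protein, had 703 and 699 CPM with Phf8 shRNA, against 346 and 320 CPM with control shRNA. Its groups lay far apart, with a log2 fold change of 1.07 ± 0.06 (SE), or 2.10-fold (adjusted p = 9.25e-70). Ncan (ENSMUSG00000002341, minus strand of chromosome 8, 70093085 to 70120873), which encodes neurocan, a lectican of the developing brain, had 511 and 529 CPM with Phf8 shRNA, against 302 and 280 CPM with control shRNA. The change was 1.79-fold, or 0.84 ± 0.06 on the log2 scale (SE, adjusted p = 1.34e-44), and the Phf8 shRNA libraries were the higher ones.

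Vcan (ENSMUSG00000021614, minus strand of chromosome 13, 89655312 to 89742509), which encodes versican, the large lectican also found outside the brain, had 227 and 234 CPM with Phf8 shRNA, against 209 and 217 CPM with control shRNA. The groups did not overlap, but the change was small and did not pass (log2 fold change 0.11 ± 0.06 SE, adjusted p = 0.0791). Its 95% interval ran from 0.003 to 0.22, which lies below the changes of Ncan and Bcan. Vcan did pass at 0.20 with upper-quartile scaling (adjusted p = 2.08e-04), at 0.13 among genes with at least 1 CPM in 2 libraries (0.0241) and at 0.14 without Phf8 shRNA replicate 1 (0.0190). Several Vcan transcripts that differ in their chondroitin sulfate attachment exons are known, and the deposited counts, given per gene, do not separate them.

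Acan (ENSMUSG00000030607, plus strand of chromosome 7, 79053483 to 79115099), which encodes aggrecan, the lectican of cartilage and of perineuronal nets, was near the limit of detection. It had 17 and 16 reads with Phf8 shRNA, against 10 and 4 reads with control shRNA. The depth-adjusted ratio of reads was 2.48 (exact binomial 95% counting interval 1.29 to 5.02, which covers counting error only). The log2 fold change of 1.30 ± 0.47 (SE) passed at an adjusted p of 0.0119, and the call rested on every library but 1. It was lost without control shRNA replicate 2 (0.83, adjusted p = 0.274), without Phf8 shRNA replicate 1 (1.38, 0.0703), without Phf8 shRNA replicate 2 (1.23, 0.111) with DESeq2 (1.32, 0.236) and with a biological coefficient of variation set to 0.2 (1.30, 0.0735). Without control shRNA replicate 1 the value was 2.04 (adjusted p = 0.0194), and 1 control library thus moved it by over 1.5 times in fold.

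Set side by side per kilobase of exon, since reads also scale with length, the lecticans summed to 261 ± 1.37 CPM per kb with Phf8 shRNA, against 137 ± 6.34 CPM per kb with control shRNA (SD, n = 2 each). Bcan took 66.6% and 65.7% of that sum with Phf8 shRNA, against 60.1% and 59.3% with control shRNA. The Vcan share was 6.03% and 6.19% with Phf8 shRNA, against 10.2% and 11.3% with control shRNA. Brevican thus made up more of the lectican RNA and versican less, while the Ncan share was 27.3% and 28.1% with Phf8 shRNA, against 29.6% and 29.4% with control shRNA. Acan took 0.0203% and 0.0223% with Phf8 shRNA, against 0.0218% and 0.00986% with control shRNA, and its groups overlapped. The ratio of Bcan to Vcan per length was 11.04 and 10.6 with Phf8 shRNA, against 5.89 and 5.26 with control shRNA. No test was made of the shares, since an exact permutation test of 2 against 2 libraries cannot go below p = 0.333.

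**Figure D2:**
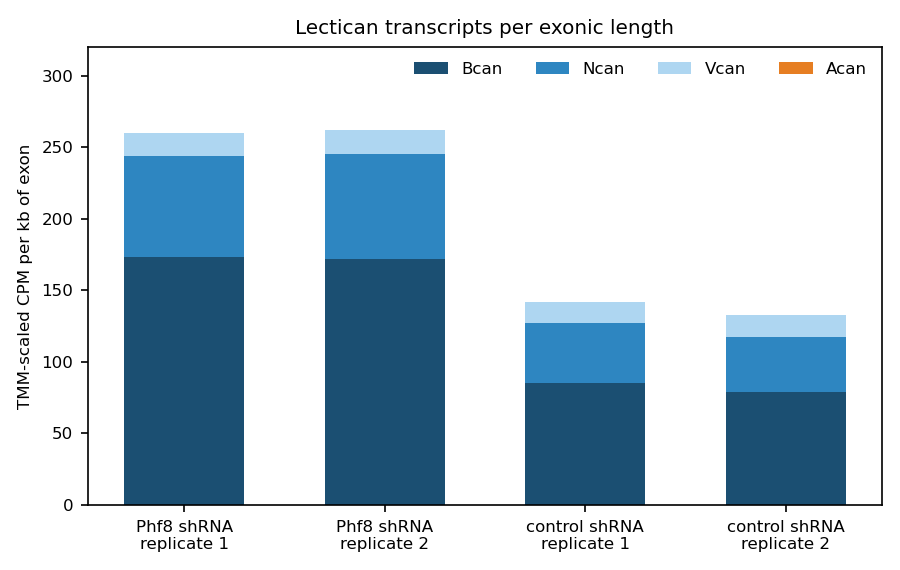
Stacked TMM-scaled CPM per kb of exon (y axis, from 0) of Bcan, Ncan, Vcan and Acan in each library, the Phf8 shRNA libraries on the left and the control shRNA libraries on the right. The bars reach 260 and 262 CPM per kb with Phf8 shRNA, against 142 and 133 CPM per kb with control shRNA, the Vcan segment is of like height in all bars, and Acan is too small to be seen.

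The link protein genes had few reads. Hapln1 (ENSMUSG00000021613, plus strand of chromosome 13, 89539796 to 89611652), which encodes the link protein also known from cartilage, had 20 and 22 reads with Phf8 shRNA, against 1 and 1 reads with control shRNA. The depth-adjusted ratio of reads was 22.1 with an exact binomial 95% counting interval of 5.75 to 189. The fitted log2 fold change of 4.30 ± 0.66 (SE, adjusted p = 5.28e-10) depends on the prior count at such levels. Hapln4 (ENSMUSG00000007594, plus strand of chromosome 8, 70083457 to 70090862), which encodes a brain link protein of perineuronal nets, had 0.925 and 1.39 CPM with Phf8 shRNA, against 0.693 and 0.929 CPM with control shRNA. The groups overlapped by a small margin and the change did not pass (0.50 ± 0.26 SE, adjusted p = 0.104, 95% interval -0.02 to 1.02), except without Phf8 shRNA replicate 1 (0.78, adjusted p = 0.0235). It was 0.20 without Phf8 shRNA replicate 2 (adjusted p = 0.663), 0.29 without control shRNA replicate 1 (0.523) and 0.72 without control shRNA replicate 2 (0.0890). The other link protein genes, Hapln2 and Hapln3, also had few reads. Hapln2, known from nodes of Ranvier, had 16 and 14 reads with Phf8 shRNA, against 8 and 5 reads with control shRNA (1.26 ± 0.48 SE, adjusted p = 0.0188). Hapln3 had 65 and 55 reads with Phf8 shRNA, against 20 and 13 reads with control shRNA (1.93 ± 0.29 SE, adjusted p = 2.09e-10).

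Each link protein gene lies beside a lectican gene in the mouse genome, and the fitted change was positive for both genes of each pair. That shared sign was not tested. Acan, Hapln1 and Hapln2 passed the low-count filter through the Phf8 shRNA libraries alone, which favours a positive sign. Acan and Hapln3, whose ends are 2 bases apart, both rose, as did Bcan and Hapln2, 21.5 kb apart. Hapln1 rose beside Vcan, 43.7 kb away, which did not pass, and Ncan rose beside Hapln4, 2.22 kb away, which did not pass and whose interval holds the change of Ncan. Differences within pairs were not tested. On its other side Bcan has Nes, 7.08 kb away on the opposite strand, which encodes the progenitor filament nestin and was singled out after its values were seen. Nes had 217 and 213 CPM with Phf8 shRNA, against 1022 and 1062 CPM with control shRNA, a log2 fold change of -2.28 ± 0.06 (SE, adjusted p = 2.34e-277), whereas Bcan rose. The neighbour of Cd44, 20.4 kb away and also singled out after its values were seen, is Slc1a2, the main astrocytic glutamate transporter gene, which had 968 and 982 CPM with Phf8 shRNA, against 136 and 135 CPM with control shRNA, whereas Cd44 fell. Over all matrix genes, the nearest protein-coding genes on each side that are not matrix genes themselves numbered 16, of which 14 were tested. Of these, 6 rose, 4 fell and 4 did not pass, that is, 10 of 14 called beside the background of 52.1%.

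Tnr and Tnc rose, whereas the other tenascin genes tested, Tnxb and Tnn, fell. Tnr (ENSMUSG00000015829, plus strand of chromosome 1, 159523769 to 159931729), which encodes a tenascin that is known from oligodendrocyte lineage cells and some neurons and that binds lecticans, had 936 and 920 CPM with Phf8 shRNA, against 391 and 387 CPM with control shRNA. That made a 2.38-fold change, 1.25 ± 0.06 on the log2 scale (SE, adjusted p = 7.03e-91), with the groups far apart. Tnc (ENSMUSG00000028364, minus strand of chromosome 4, 63959785 to 64047015), which encodes a tenascin of progenitors and reactive astrocytes, had 74.3 and 67.4 CPM with Phf8 shRNA, against 47.6 and 45.8 CPM with control shRNA. It rose 1.52-fold (0.60 ± 0.06 SE, adjusted p = 7.05e-25). Per length, Tnr stood above Tnc by 7.61 and 8.24 times with Phf8 shRNA, against 4.97 and 5.10 times with control shRNA. Tnxb, which encodes the tenascin of connective tissue, had 5.02 and 3.70 CPM with Phf8 shRNA, against 9.27 and 7.85 CPM with control shRNA (-0.96 ± 0.11 SE, adjusted p = 1.84e-16). Tnn, which encodes tenascin-W, had 3 and 5 reads with Phf8 shRNA, against 16 and 13 reads with control shRNA (-1.75 ± 0.54 SE, adjusted p = 0.00322), and passed the low-count filter through the control shRNA libraries alone. Tnxb and Tnn were named after their values were seen. Exons on the opposite strand overlapped 3.44% of the exonic length of Tnr, 2.26% of that of Tnc and 4.30% of that of Has2, and none of that of the other 7 genes. The strand used in counting is unknown, so reads in those stretches cannot be told apart from antisense reads.

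Cd44 and Has2 fell. Cd44 (ENSMUSG00000005087, minus strand of chromosome 2, 102811141 to 102901665), which encodes the main cell surface receptor of hyaluronan and is also a marker of astrocyte precursors and reactive astrocytes, had 73.1 and 65.7 CPM with Phf8 shRNA, against 155 and 157 CPM with control shRNA. It fell by 1.17 ± 0.06 on the log2 scale, or 55.5% (SE, adjusted p = 2.83e-92). Has2 (ENSMUSG00000022367, minus strand of chromosome 15, 56665627 to 56694539), which encodes a hyaluronan synthase, had 12.3 and 9.94 CPM with Phf8 shRNA, against 18.7 and 18.0 CPM with control shRNA. The decrease was 0.72 ± 0.08 on the log2 scale, or 39.1% (SE, adjusted p = 1.54e-17), with no overlap of the groups. The ratio of Bcan to Cd44 per length was 16.04 and 17.7 with Phf8 shRNA, against 3.72 and 3.39 with control shRNA.

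Per length, the order of the matrix genes differed between the groups. With Phf8 shRNA, Bcan was highest at 172 ± 0.816 CPM per kb, followed by Ncan and Tnr at 72.3 ± 1.81 and 72.1 ± 0.872, Vcan at 15.9 ± 0.376, Cd44 at 10.2 ± 0.769, Tnc at 9.12 ± 0.626 and Has2 at 2.63 ± 0.394 (SD, n = 2). Ncan and Tnr could not be ordered there, since their libraries overlapped. With control shRNA, Bcan stood at 82.0 ± 4.56 CPM per kb, Ncan at 40.5 ± 2.13, Tnr at 30.3 ± 0.244, Cd44 at 23.1 ± 0.241, Vcan at 14.7 ± 0.359, Tnc at 6.01 ± 0.158 and Has2 at 4.34 ± 0.110 (SD, n = 2), without overlap between neighbours. Cd44 was thus below Vcan with Phf8 shRNA and above it with control shRNA. Hapln4, Hapln1 and Acan had the lowest levels in both groups, at most 0.354 CPM per kb with Phf8 shRNA and 0.237 CPM per kb with control shRNA.

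**Figure D3:**
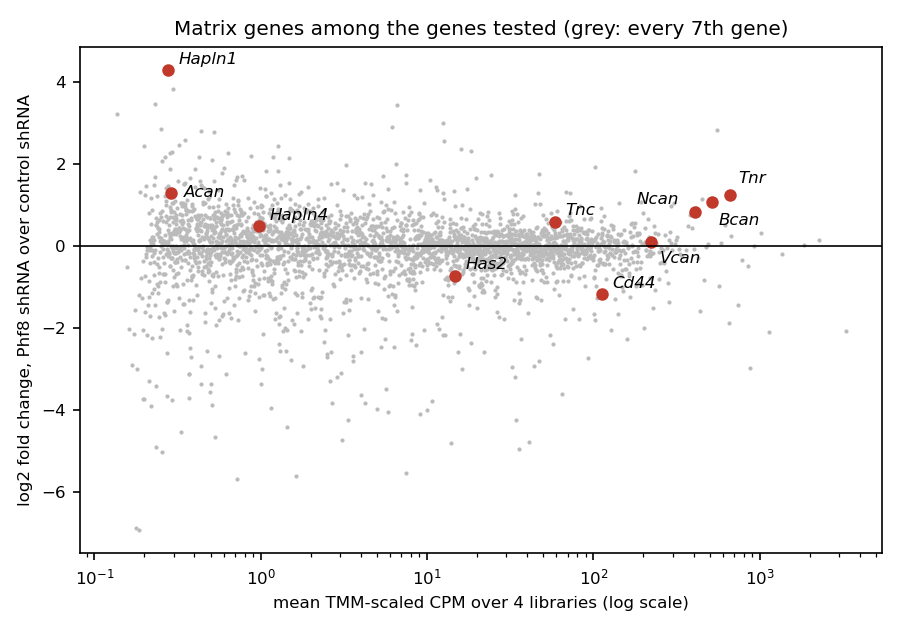
Log2 fold change of Phf8 shRNA over control shRNA (y axis) against the mean TMM-scaled CPM of the 4 libraries (x axis, log scale), with the matrix genes in red and every 7th of the genes tested, ordered by level, in grey. Ncan, Bcan and Tnr lie above 0 at high levels, Cd44 at -1.17 and Has2 at -0.72 lie below, and Hapln1 stands at 4.30 with few reads.

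Other genes of the same matrix were read from 5 lists. In the list of hyaluronan synthesis and turnover, 9 genes were tested, with 1 higher, 4 lower and 4 not passing (median log2 fold change -0.11), a called share of 55.6% that is near the background of 52.1%. Cemip, which encodes a hyaluronan-degrading protein, fell 3.79-fold, with 2.31 and 1.99 CPM with Phf8 shRNA against 8.58 and 7.82 CPM with control shRNA (adjusted p = 3.08e-45). Its relative Cemip2 fell by 0.58 on the log2 scale. Ugdh and Ugp2, which make the UDP-glucuronate precursor, fell by 0.31 and 0.26. Among the synthase genes, Has3 rose by 0.29 ± 0.10 (SE, adjusted p = 0.00935) and Has1 did not pass (-0.10 ± 0.12 SE, adjusted p = 0.519), beside the lower Has2. Has2 made up 55.9% and 46.0% of synthase RNA per length with Phf8 shRNA, against 64.9% and 64.9% with control shRNA.

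Genes for other hyaluronan-binding proteins mostly fell: of 11 tested, 6 were lower, 3 did not pass and 2, the link protein genes Hapln2 and Hapln3, were higher (median -0.63), or 72.7% called beside the background of 52.1%. Layn, which encodes the hyaluronan receptor layilin, fell 8.02-fold, with 54 and 36 reads with Phf8 shRNA against 403 and 358 reads with control shRNA (-3.00 ± 0.15 SE, adjusted p = 7.14e-86). Itih5 and Itih3, which encode inter-alpha-trypsin inhibitor heavy chains that can be coupled to hyaluronan, fell 2.17-fold and 1.69-fold. Hmmr, which encodes a hyaluronan-binding protein that also acts at the mitotic spindle, fell 2.78-fold. Among other receptor genes of the list, named after their values were seen, Stab1 (0.50 ± 0.40 SE, adjusted p = 0.306) and Stab2 (0.56 ± 0.37 SE, adjusted p = 0.191) did not pass, and Lyve1 had too few reads to be tested.

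Of 15 tested genes in the list of other tenascins and binding partners, 12 were called, or 80.0%, beside the background of 52.1%. The other tenascins Tnxb and Tnn were lower, and the binding partners went both ways, which made 5 higher, 7 lower and 3 not passing in all (median 0.06). Cspg5, which encodes neuroglycan C, rose 2.63-fold, with 195 and 194 CPM with Phf8 shRNA against 74.6 and 73.3 CPM with control shRNA (adjusted p = 3.76e-129). Ptprz1, which encodes a receptor phosphatase whose ectodomain is the proteoglycan phosphacan, a ligand of Tnr and Tnc, rose 1.61-fold, with 2705 and 2684.5 CPM with Phf8 shRNA against 1672 and 1685 CPM with control shRNA. Egfr, whose product can be engaged by repeats of tenascin-C, rose 1.93-fold. Sdc4, a heparan sulfate proteoglycan gene, fell 4.29-fold, with 70.8 and 62.8 CPM with Phf8 shRNA against 290 and 285 CPM with control shRNA. Itgav, an integrin subunit gene, fell 1.98-fold.

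All 8 genes for lectican-cleaving proteases and their inhibitor were called, 2 higher and 6 lower (median -0.71), beside backgrounds of 24.8% higher and 27.3% lower, and Adamts8 passed the low-count filter through the control shRNA libraries alone. Adamts9 rose 2.80-fold, with 247 and 237 CPM with Phf8 shRNA against 86.2 and 86.9 CPM with control shRNA, and Adamts5 rose 1.86-fold. Adamts8 and Adamts20 fell by 2.38 and 1.02 on the log2 scale. Adamts1, Adamts4 and Adamts15, named after their values were seen, fell by 0.40, 0.30 and 2.15. Timp3, the inhibitor of this protease family, fell 2.97-fold, with 232 and 206 CPM with Phf8 shRNA against 657 and 645 CPM with control shRNA. Antisense exons overlapped 21.3% of the exonic length of Timp3, 11.995% of that of Adamts9 and 10.6% of that of Adamts8, so that part of their reads may be antisense.

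In the list of chondroitin sulfate chain assembly, 19 genes were tested, with 8 higher, 6 lower and 5 not passing (median 0.05), or 73.7% called beside the background of 52.1%. Chst3, which encodes the main chondroitin 6-O sulfotransferase, rose 2.69-fold, with 41.1 and 37.9 CPM with Phf8 shRNA against 15.0 and 14.4 CPM with control shRNA (adjusted p = 1.73e-92). Chst11, which encodes a chondroitin 4-O sulfotransferase, fell 2.19-fold, with 26.2 and 27.3 CPM with Phf8 shRNA against 59.9 and 57.2 CPM with control shRNA (adjusted p = 8.70e-75). Chst12, which encodes another chondroitin 4-O sulfotransferase and was named after its values were seen, did not pass (0.05 ± 0.15 SE, adjusted p = 0.806). Chst15 and Ust, whose products add further sulfates to chondroitin chains, rose 3.45-fold and 2.36-fold, and Xylt1, whose product starts the chain on the core protein, rose 1.62-fold. Antisense exons overlapped 17.9% of the exonic length of Chst15. Over all 5 lists, 18 of 62 tested genes rose and 29 fell, that is, 75.8% called beside the same background, and 4 of those called (Hapln2, Itih4, Tnn and Adamts8) passed the low-count filter through 1 group alone.

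**Figure D4:**
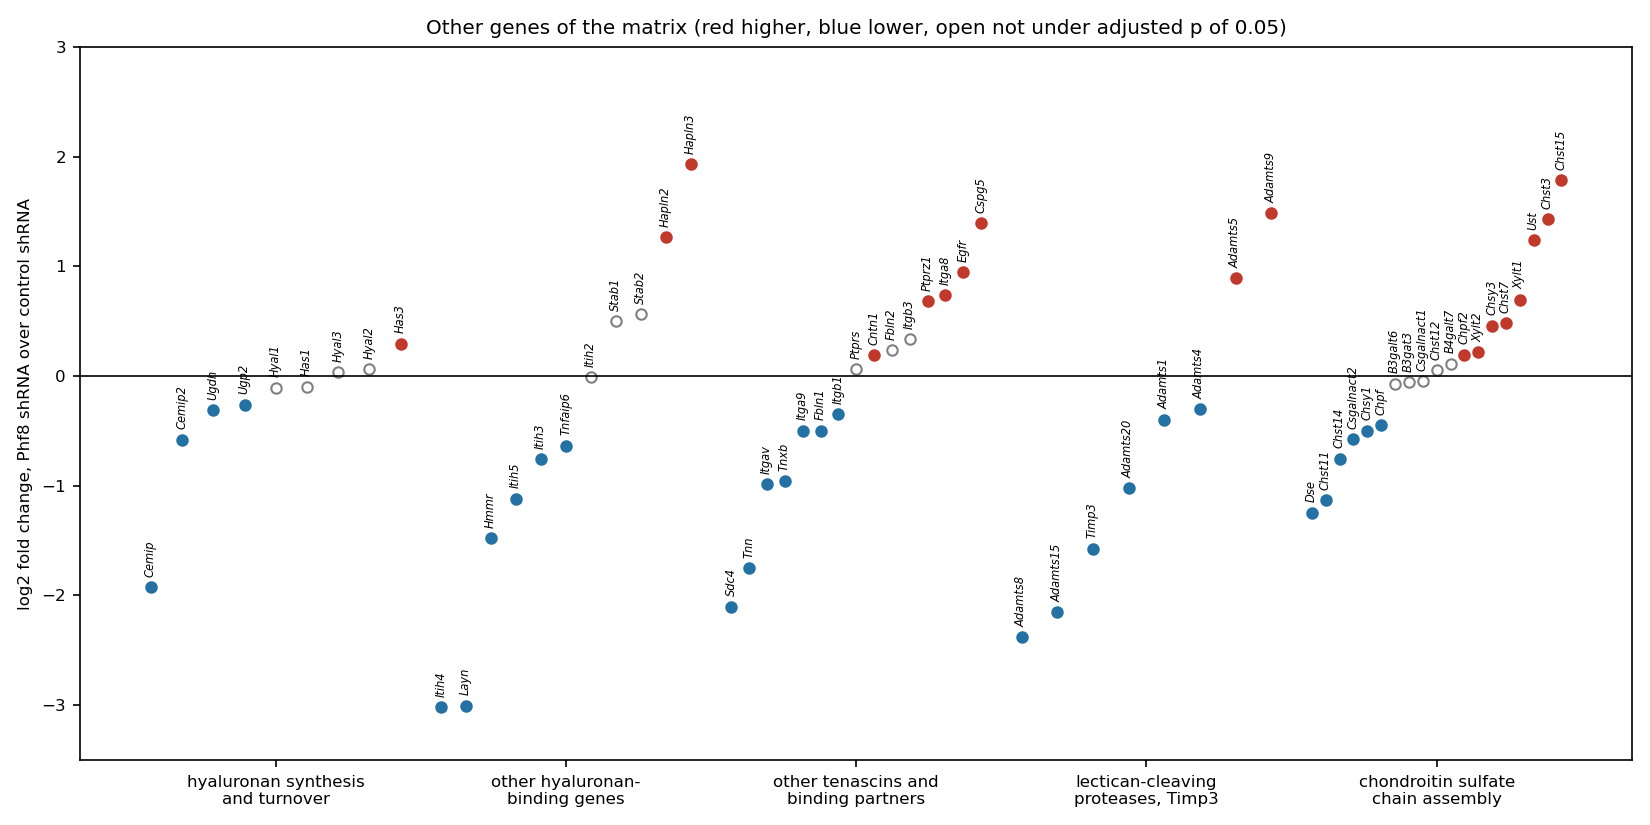
Log2 fold change of Phf8 shRNA over control shRNA (y axis) for each tested gene of the 5 lists (x axis, genes ordered by value within a list), red for higher, blue for lower and open for genes that did not pass an adjusted p of 0.05. Genes of hyaluronan binding are mostly below 0. Hapln2 at 1.26 and Hapln3 at 1.93 lie above, as do the open points of Stab1 at 0.50 and Stab2 at 0.56. Chondroitin sulfate genes lie on both sides.

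Markers of other cell types also differed between the groups. Their counts stand beside a background of 52.1% of all genes tested called, 24.8% higher and 27.3% lower. Of 19 tested oligodendrocyte lineage markers, 18 rose and 0 fell (median 1.30, 1 not passed), and their summed level was 1587 to 1635 CPM with Phf8 shRNA, against 971 to 1011 CPM with control shRNA. None of the 19 was at 0, and Gpr17 and Enpp6 rose 3.21-fold and 8.90-fold. Of 10 tested neuron markers, 8 rose and 1 fell (median 0.87), with a summed level of 1936 to 1942 CPM with Phf8 shRNA, against 1192 to 1233 CPM with control shRNA. Most of this sum lay in Map2, which had 1390 and 1379 CPM with Phf8 shRNA, against 902 and 936 CPM with control shRNA. Gad1, Syt1 and Celf4 were among those that rose, and Slc17a6, Slc17a7, Gad2, Stmn2 and Sst had too few reads to be tested. Pvalb fell 2.72-fold, and Rbfox3 did not pass (0.15 ± 0.09 SE, adjusted p = 0.185). Map2, Pvalb and Rbfox3 were named after their values were seen. Neural progenitor markers went both ways, with 4 higher, 3 lower (Nes, Vim and Prom1) and 1 not passing (Sox2) of 8. They summed to 2874 to 3196 CPM with Phf8 shRNA, against 7038 to 7199 CPM with control shRNA. Most of the fall in this sum lay in Vim, which had 1353.5 and 1191.5 CPM with Phf8 shRNA, against 5385 and 5192 CPM with control shRNA. Of 10 astrocyte markers, 3 rose and 6 fell, and they summed to 6560 to 7303 CPM with Phf8 shRNA, against 9602 to 9854 CPM with control shRNA. Without Gfap, a sum made after the values were seen, the levels were 5984 and 5536 CPM with Phf8 shRNA, against 5776 and 5739 CPM with control shRNA, and the groups overlapped. That sum mixed genes that rose with genes that fell. Slc1a2 and Glul, singled out after their values were seen, rose 7.20-fold and 2.22-fold. Aqp4, and Aldoc, which was also singled out, fell 2.51-fold and 1.84-fold. The part of these cell types in the matrix changes was not tested.

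Markers of non-neural cells were low in sum but not all near 0. Called were 40% of the tested microglia markers and 62.5% of the tested endothelial and mural markers, beside the background of 52.1%. Of 5 fibroblast markers, 3 had at most 3 reads over all libraries and 1 was tested, and their summed level was 0.300 to 0.347 CPM with Phf8 shRNA, against 0.587 to 0.601 CPM with control shRNA. Of 12 microglia markers, 5 were tested, of which 0 rose and 2 fell (Cd68 and Adgre1), and 3 had no read in any library, with summed levels of 6.08 to 6.18 CPM with Phf8 shRNA, against 8.92 to 9.63 CPM with control shRNA. Endothelial and mural markers summed to 26.1 to 26.9 CPM with Phf8 shRNA, against 28.5 to 28.5 CPM with control shRNA, with 1 higher and 4 lower of 8 tested. Pdgfrb, which is also made outside mural cells, was the higher one, with 23.8 and 24.0 CPM with Phf8 shRNA against 9.55 and 9.53 CPM with control shRNA. Acta2 was among the lower ones, with 0.301 and 0.572 CPM with Phf8 shRNA against 9.32 and 8.31 CPM with control shRNA, as was Kdr. The endothelial and mural sum was below the level of Cd44 and above that of Has2, Acan, Hapln1 and Hapln4 in each library, and its part in their changes was not tested. Of the marker genes called, 4 (Mag, Opalin, Adgre1 and Kcnj8) passed the low-count filter through 1 group alone.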

How the data were processed

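Total RNA was depleted of ribosomal RNA and made into stranded libraries, per the labels' protocols. HISAT2, HTSeq and DESeq2 and the build mm10 are named in the submitters' processing notes. No version, strand setting or annotation release is given there. The deposited files hold a whole-number count of reads for each of 55421 genes, 1 file per library, which the authors are taken to have left unnormalized since totals differ. Of the identifiers, 55240 were found in GENCODE M21 (mm10), 54985 at an unchanged start and end; this annotation gave exonic lengths. Groups were read from sample titles. All 4 libraries entered a two-sided quasi-likelihood F test without covariates (edgeR 4.0.16, R 4.3.3), after filterByExpr (about 0.242 CPM in 2 libraries) and TMM scaling. Each SE was derived from the log2 fold change and the F value. The fit was tested on simulated counts. Matrix genes were compared by counts and medians, with no set test.

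The genes and lists were chosen with earlier results of these data known. Named were the matrix genes, the link protein genes, the called genes with the smallest p of each list (up to 5, or 3 for marker lists), 4 astrocyte markers and Phf8; 1 marker gene that the rule names is not reported here. Alternatives were DESeq2 1.42.0 and limma-voom (limma 3.58.1), other scalings, filters and thresholds, the replicate block, each library left out, and a set spread. Depth was 36839530 to 44724759 reads, and the exact binomial intervals of read ratios cover counting error only. Intervals of fitted changes rest on the SE, which includes the spread between libraries.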

Additional observations from a re-analysis of the deposited data

How the results depend on the processing

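None of the matrix genes reversed under any of 16 alternatives in which it was tested. Acan, Hapln1 and Hapln4 were not tested among genes with at least 1 CPM in 2 libraries, which left 7. Without 1 library the calls numbered 7 to 9 matrix genes (5 to 7 higher, 2 to 2 lower), 42 to 46 genes of the 5 lists and 9053 to 10235 of all genes (4038 to 4755 higher, 4917 to 5480 lower), and the matrix median was 0.74 to 0.82. The matrix median was 0.80 with upper-quartile scaling and 0.62 with at least 1 CPM in 2 libraries. The DESeq2 test covered 34915 genes instead of 21042 and called 7517 of them, 3177 higher. It called 7 matrix genes, 5 higher and 2 lower. Of all calls 47.7% were higher with TMM, 58.0% with upper-quartile scaling and 40.3% with library size alone, and no scaling moved the median of all genes by over 0.1. The estimated common biological coefficient of variation was 3.64%. Set to 0.2, 3305 genes were called (1262 higher, 2043 lower), 5 of them matrix genes (Ncan, Bcan, Hapln1, Tnr and Cd44, so that 1 was lower), and 23 in the 5 lists. Set to 0.4, 811 were called (172 higher, 639 lower), with 1 matrix gene, Hapln1 (1 higher, 0 lower), and 6 list genes. Same-numbered libraries showed no shared deviation from their group means (r across genes -0.001). With 2 libraries per group, this cannot tell whether they were paired by culture or infection. With the replicate block 10929 genes were called, with the same matrix calls. With the longest transcript as length, the shares with Phf8 shRNA were 71.1% for Bcan, 23.0% for Ncan, 5.91% for Vcan and 0.0179% for Acan, against 64.8% for Bcan and 24.7% for Ncan with control shRNA. Of 192 counts of called genes in the pathway and marker lists, 171 were within 1.5 times. Depth limits Acan, Hapln1 and Hapln4.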
